A study of Mus musculus with 22 samples.

Results

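The 35 genes described here are interferon-stimulated genes of the mouse and the factors that switch them on, and their open chromatin was compared between hippocampus and frontal cortex and over the hours after a lipopolysaccharide (LPS) challenge. They are Ifit1, Ifit2, Ifit3, Isg15, Mx2, Oas1a, Oas2, Oas3, Oasl1, Oasl2, Rsad2, Usp18, Bst2, Ifi44, Ifi27, Ifih1, Dhx58, Irf1, Irf7, Irf9, Stat2, Parp9, Parp14, Gbp2, Gbp3, Gbp5, Gbp7, Cxcl10, Xaf1, Zbp1, Trim25, Trim30a, Cmpk2, Herc6 and Eif2ak2. They were chosen by name and function, and make up 35 of the 21888 genes counted (the protein-coding genes of the RefSeq annotation of GRCm38.p6 and Mx2, which that annotation gives as a transcribed pseudogene). A peak was assigned to a gene when its summit lay in the gene body or within 10 kb of it.

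The animals were C57BL/6J wild type adults, all male, and modelled Gulf War Illness. All of them, controls included, drank corticosterone (CORT) for 7 days, received the organophosphate diisopropyl fluorophosphate (DFP) on day 8 and then had intermittent CORT over 5 weeks, before a final injection of saline or of LPS, a bacterial cell wall component. OMNI-ATAC-seq, in which a transposase cuts accessible DNA of whole frozen tissue, gave 1 library of each tissue from each of 11 animals: 2 animals given saline and collected at 6 h, and 3 given LPS for each of 6, 12 and 24 h. No group without CORT and DFP was analysed here, and since saline was collected at 6 h only, LPS and time cannot be told apart at 12 and 24 h.

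Type I interferon binds its receptor and activates STAT2, which joins IRF9 in the complex ISGF3. ISGF3 binds the interferon-stimulated response element (ISRE) near the starts of these genes, while interferon gamma acts at the gamma-activated site (GAS). In brain, microglia, astrocytes, endothelial cells and neurons can all mount this response, and LPS sets it off through Toll-like receptor 4.

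The RefSeq start windows of GRCm38.p6, from 250 bases before the start to 50 after it, show where these elements lie. Of the 35 genes, 27 had such a window, and 16 of the 27 (59.3%) held an ISRE, searched as GAAANNGAAA on either strand, against 3.94% of the 17492 protein-coding genes with a window. The GAS, searched as TTCNNNGAA, which reads the same on both strands, was found in 7 of the 27 (25.9%) against 8.92% of all. The kappa B site, GGGANNTTCC on either strand, was found in 4 (14.8%) against 1.64% of all. The windows of 5 genes are printed in the direction of transcription, with the ISRE in capitals. They are shown because they span the range of peaks found at these starts: Isg15 had no peak there in any library, Oas3 had 1 in 1 library, Gbp7 and Stat2 had 1 in all 22, and Cmpk2 had a strong peak in all 22 but no ISRE match.
Isg15: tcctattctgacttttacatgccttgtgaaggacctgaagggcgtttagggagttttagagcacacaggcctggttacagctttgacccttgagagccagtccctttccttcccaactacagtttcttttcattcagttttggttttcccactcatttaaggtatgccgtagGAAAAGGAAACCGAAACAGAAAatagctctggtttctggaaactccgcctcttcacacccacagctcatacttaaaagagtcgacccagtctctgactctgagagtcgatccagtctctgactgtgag
Oas3: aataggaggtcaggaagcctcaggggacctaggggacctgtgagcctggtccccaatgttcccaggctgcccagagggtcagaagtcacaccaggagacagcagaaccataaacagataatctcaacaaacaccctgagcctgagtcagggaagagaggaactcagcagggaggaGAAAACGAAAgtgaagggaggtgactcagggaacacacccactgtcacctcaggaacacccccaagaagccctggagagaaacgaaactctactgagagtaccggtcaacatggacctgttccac
Gbp7: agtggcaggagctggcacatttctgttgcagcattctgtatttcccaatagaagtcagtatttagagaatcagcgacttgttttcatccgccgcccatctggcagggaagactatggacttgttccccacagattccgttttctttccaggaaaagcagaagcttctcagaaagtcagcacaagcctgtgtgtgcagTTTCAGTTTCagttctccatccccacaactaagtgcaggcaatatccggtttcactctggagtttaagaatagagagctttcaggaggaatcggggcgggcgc
Stat2: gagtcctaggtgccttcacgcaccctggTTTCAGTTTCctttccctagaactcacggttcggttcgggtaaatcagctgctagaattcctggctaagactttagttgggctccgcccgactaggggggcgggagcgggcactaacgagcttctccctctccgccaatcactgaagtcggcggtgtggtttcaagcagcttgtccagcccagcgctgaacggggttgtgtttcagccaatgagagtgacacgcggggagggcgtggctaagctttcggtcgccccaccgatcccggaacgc
Cmpk2: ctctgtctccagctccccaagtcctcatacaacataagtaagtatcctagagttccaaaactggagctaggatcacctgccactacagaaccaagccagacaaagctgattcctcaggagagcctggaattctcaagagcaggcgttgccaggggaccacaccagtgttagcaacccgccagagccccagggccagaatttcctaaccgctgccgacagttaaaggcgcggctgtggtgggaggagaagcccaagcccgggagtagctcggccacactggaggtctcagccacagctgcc

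The Isg15 window (chr4:156200769-156201068, minus strand) carries 3 overlapping matches in 1 run of 22 bases, which lies 57 to 78 bases before the start. The Oas3 match (chr5:120777610-120777909, minus strand) lies 66 to 75 bases before the start. Gbp7 (chr3:142530086-142530385, plus strand) holds its match 44 to 53 bases before the start, and Stat2 (chr10:128270248-128270547, plus strand) 213 to 222 bases before it. Cmpk2 (chr12:26468965-26469264, plus strand) holds none of the 3 motifs. A match is a run of letters, not a bound site.

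Peaks at the starts differed widely from gene to gene. Of the 27 genes with a start window, 13 (48.1%) had a peak overlapping it in all 22 libraries and 4 (14.8%) in none, against 58.1% and 30.6% of protein-coding genes. Among each library's 50000 strongest peaks by the authors' score, 5 genes (18.5%) had a start peak in all 22 libraries, against 43.2% of protein-coding genes, and 18 (66.7%) in none, against 43.5%. The 5 were Stat2 and Irf9, which encode parts of ISGF3, Irf1, an early-acting interferon regulatory factor, Ifit2, which binds RNA, and Cmpk2, a mitochondrial nucleotide kinase. The genes with no peak at the start were Isg15, the ubiquitin-like modifier, Oas1a, Oasl2 and Ifi44. By the authors' fold enrichment, the genes with a peak at the start, or within 1 kb of either gene end for the 8 genes without a start window, were ranked within each library. Stat2 ranked 1 to 3 and was first in 11 of 22 libraries, with a fold of 9.18 to 14.4. Ifi27, measured at the gene ends, was first in 7, and Ifit2 ranked 1 to 7. Rsad2, a radical enzyme that makes an antiviral nucleotide, had a start peak in all 22 libraries but never among the 50000 strongest, and so did Bst2, which tethers virus particles to the cell, Irf7, Xaf1 and Eif2ak2.

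Start windows with and without the element are described side by side. Of the 16 genes with an ISRE, 5 had a start peak in all 22 libraries, 9 in some and 2 in none. Of the 11 genes without one, 8 had a start peak in all 22, 1 in some and 2 in none. Only Stat2 among the 16 had a start peak among the 50000 strongest in all libraries, against 4 of the 11. With the window of highest GC content taken for each gene, the median was 49.7% over genes with an ISRE and 54.7% over those without. Over single windows the median was 51.2% at these genes and 56.3% at all protein-coding genes. The part of GC content in the peaks was not tested.

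**Figure D1:**
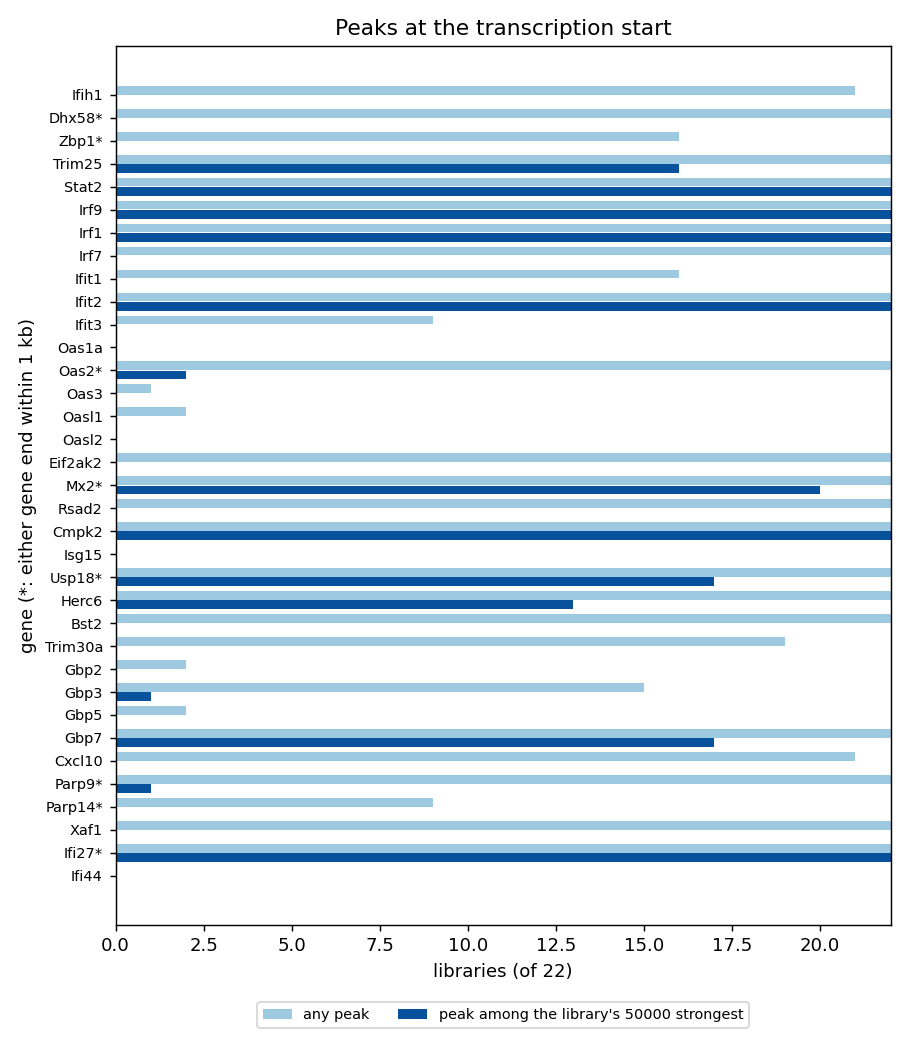
Number of libraries (of 22, x axis) with any peak at the start of each gene (light bars) and with a peak among the library's 50000 strongest (dark bars), with genes in order of role. Stat2, Irf9, Irf1, Ifit2 and Cmpk2 reach 22 on both, as does Ifi27, measured at the gene ends. Isg15, Oas1a, Oasl2 and Ifi44 have no peak. Genes marked with a star have no start window and were measured within 1 kb of either gene end.

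Several start windows held a peak in only part of the libraries. Cxcl10, a chemokine that draws T cells, had a start peak in 21 of 22 libraries (10 of 11 in hippocampus, 11 of 11 in cortex). Ifih1, which encodes the RNA sensor MDA5, was also at 21. Trim30a had a start peak in 19 libraries, Ifit1 in 16, Gbp3 in 15 and Ifit3 in 9. Peaks centred just outside a start window can be missed by this count. Within the gene, 256 bp from the Gbp3 start and 156 bp from the Ifih1 start, all 22 libraries held a peak. Gbp2, Gbp5 and Oasl1 had one in 2 libraries each and Oas3 in 1. The Ifit3 start peak was present in 3 hippocampus and 6 cortex libraries, and in cortex in 0 of 2 saline libraries, 2 of 3 at 6 h, 1 of 3 at 12 h and 3 of 3 at 24 h. The Herc6 start peak, present in all libraries, was among the 50000 strongest in 2 hippocampus and 11 cortex libraries, and that of Gbp7 in 11 hippocampus and 6 cortex libraries. The 8 genes without a start window were measured within 1 kb of either gene end: Ifi27, Oas2, Usp18, Dhx58, Mx2 and Parp9 had a peak there in all 22 libraries, Zbp1 in 16 and Parp14 in 9.

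Counted over the gene body and 10 kb around it, the 35 genes held 129 to 193 peaks per hippocampus library (median 148) and 117 to 168 per cortex library (median 131). The means were 147.4 ± 17.5 (SD, n = 11) and 137.5 ± 16.5 (SD, n = 11). The libraries themselves held more peaks in hippocampus, 262113 ± 21631 (SD, n = 11) against 241998 ± 22839 (SD, n = 11), and per 100000 library peaks the genes held 56.2 ± 3.70 (SD, n = 11) and 56.7 ± 2.97 (SD, n = 11), so the tissues overlapped on that scale. The median gene of the 35 had 4.14 peaks per library and the median of all genes 5.36. Read depth is unknown from peak lists. Oas1a, which makes the 2-5A that activates RNase L, was listed with 0 peaks in all 22 libraries, as were 10.6% of all genes. How reads that map to several near-identical genes were treated, which bears on the Oas, Ifit and Gbp families, is not stated in the labels or notes used here. Among the genes 6 pairs, of 11 genes in all, lie close enough that a peak between them counts for both: Ifit2 and Ifit3, Oas2 and Oas3, Oasl1 and Oasl2, Rsad2 and Cmpk2, Gbp3 and Gbp7, and Gbp5 and Gbp7.

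**Figure D2:**
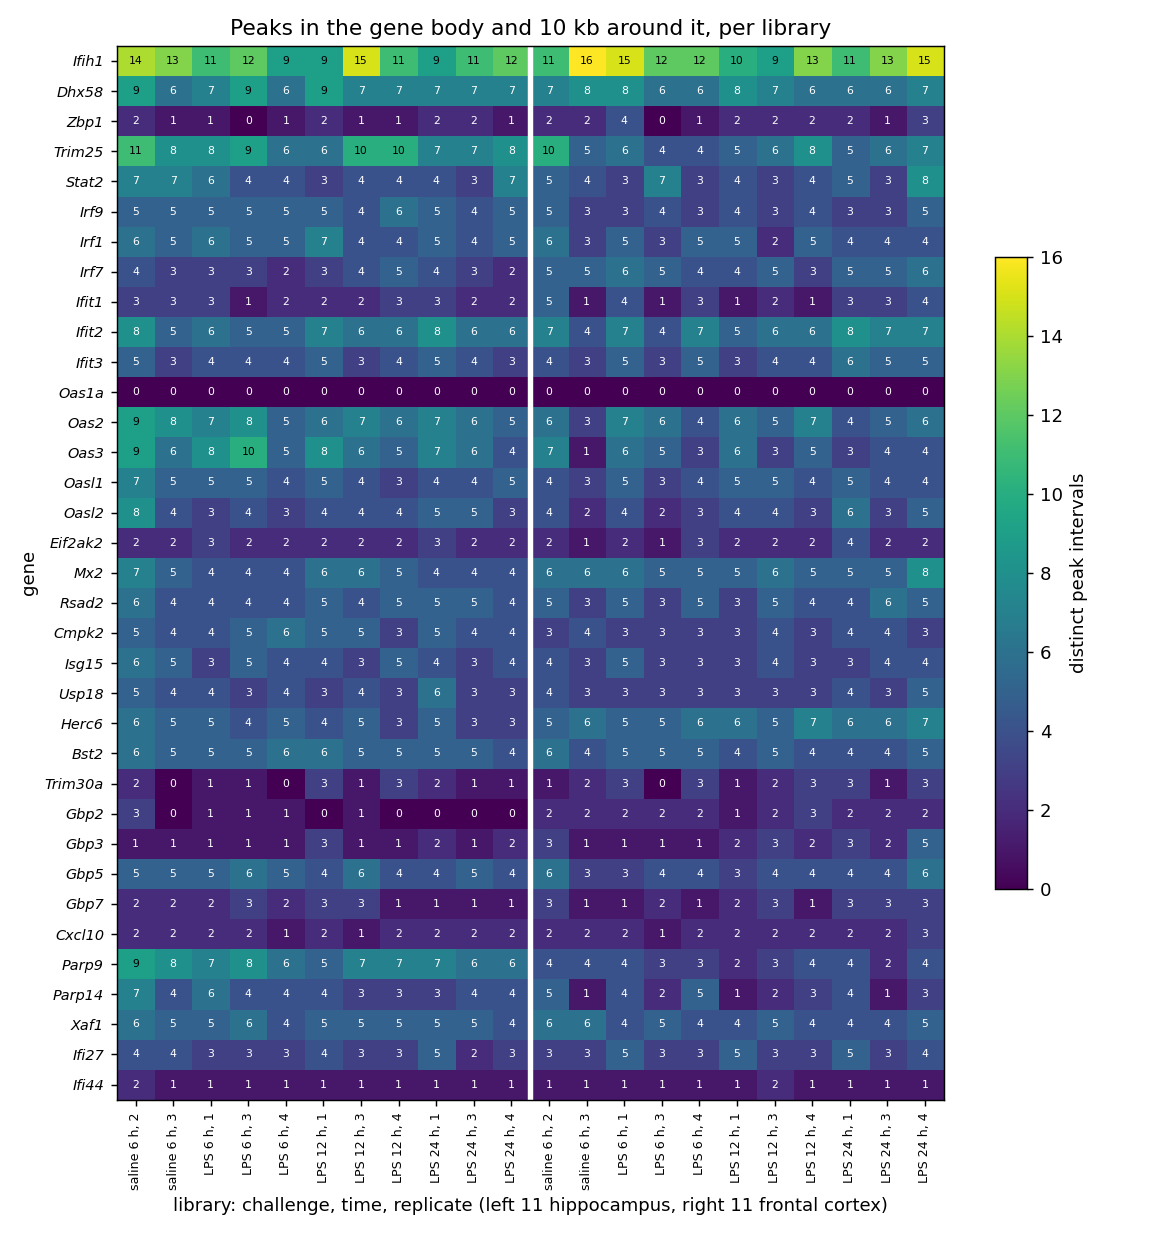
Peaks counted at each of the 35 genes (rows, in order of role) in each of the 22 libraries (columns, 11 hippocampus on the left and 11 frontal cortex on the right); the printed number and the colour are the count. Ifih1 holds the most, 9 to 16, and Oas1a none, while the Parp9 row changes level between the tissues.

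Peak number differed between the tissues at 8 of 34 genes tested (Oas1a could not be tested), by a permutation test over libraries adjusted by Benjamini-Hochberg over 19189 genes. Of these, 5 (Parp9, Oas3, Trim25, Irf9 and Cmpk2) were higher in hippocampus, where 18.6% of all genes tested were called, and 3 (Gbp2, Irf7 and Herc6) were higher in frontal cortex, where 9.56% were. The share of the 35 called was therefore near that of the genome, 28.1% in either direction. Scaled per 100000 library peaks the genome's calls went from 3565 hippocampus and 1834 cortex to 2983 and 4736, while the 35 gave 5 and 4, Mx2 being added in cortex. In bulk tissue, more cells of a type and more accessible chromatin per cell cannot be told apart.

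Parp9 showed the clearest separation. It encodes a macrodomain protein that, with its partner DTX3L, promotes the interferon response. In hippocampus it held 9 and 8 peaks in the saline libraries, 7, 8 and 6 at 6 h of LPS, 5, 7 and 7 at 12 h and 7, 6 and 6 at 24 h. In cortex it held 4 and 4 in saline, 4, 3 and 3 at 6 h, 2, 3 and 4 at 12 h and 4, 2 and 4 at 24 h. Every hippocampus library was above every cortex library, and the hippocampus was higher in 11 of 11 animals. The means were 6.91 ± 1.14 (SD, n = 11) and 3.36 ± 0.809 (SD, n = 11), a difference of 3.55 (permutation test, two-sided, adjusted p = 0.000270).

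Of the regulators, Irf9 ran from 4 to 6 peaks in hippocampus (median 5) and from 3 to 5 in cortex (median 3), with means of 4.91 ± 0.539 and 3.64 ± 0.809 (SD, n = 11 each, permutation test, adjusted p = 0.010). It was higher in hippocampus in 9 of 11 animals and equal in 2. Counting each summit ended the Irf9 call (permutation test, adjusted p = 0.131), and counting peaks in gene bodies alone ended those of Irf9, Trim25 and all 3 cortex genes. Irf7, the factor that amplifies type I interferon production, went the other way, with 2 to 5 peaks in hippocampus (median 3) and 3 to 6 in cortex (median 5). Its means were 3.27 ± 0.905 and 4.82 ± 0.874 (SD, n = 11 each, permutation test, adjusted p = 0.0101), and cortex was higher in 10 of 11 animals. Both ranges overlapped. Trim25, the ubiquitin ligase that acts on RIG-I, had 6 to 11 peaks in hippocampus (median 8) and 4 to 10 in cortex (median 6), with hippocampus higher in 11 of 11 animals (permutation test, adjusted p = 0.0456). The Trim25 and Irf7 calls did not hold with only peaks at a −log10 q of at least 5 (adjusted p = 0.786 and 0.732 in those permutation tests). The Trim25 call was also lost when any 1 animal other than saline replicate 2 was left out, with adjusted p of 0.0509 to 0.11 in those permutation tests.

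Of the effectors, Oas3, an oligoadenylate synthetase, had 4 to 10 peaks in hippocampus (median 6) and 1 to 7 in cortex (median 4), with means of 6.73 ± 1.85 and 4.27 ± 1.74 (SD, n = 11 each, permutation test, adjusted p = 0.0269). The Oas3 call was lost without saline replicate 3, LPS 6 h replicate 3, LPS 12 h replicate 3 or LPS 24 h replicate 1, with adjusted p of 0.0542 to 0.0644, and with only peaks at a −log10 q of at least 5 (0.0673). Cmpk2 had 3 to 6 peaks in hippocampus and 3 to 4 in cortex (means 4.55 ± 0.820 and 3.36 ± 0.505, SD, n = 11 each, permutation test, adjusted p = 0.0121). With only peaks at a −log10 q of at least 5 the difference at Cmpk2 was 0, and with each summit counted its adjusted p was 0.406 (permutation tests). Herc6, the ligase that attaches ISG15 to proteins in the mouse, had 3 to 6 in hippocampus and 5 to 7 in cortex (means 4.36 ± 1.03 and 5.82 ± 0.751, SD, n = 11 each, permutation test, adjusted p = 0.0140). Gbp2, an interferon-induced GTPase, had 0 to 3 peaks in hippocampus (median 0) and 1 to 3 in cortex (median 2). Only 5 hippocampus libraries held any, and the single value of 3 was saline replicate 2, the library with the most peaks, at 307140 (permutation test, adjusted p = 0.00841). With the animal as a block, in an exact sign-flip permutation test, Irf7 (adjusted p = 0.0582) and Herc6 (adjusted p = 0.0797) were no longer called, and 5 genes stayed called in hippocampus and 1, Gbp2, in cortex, where 15.6% and 7.9% of all genes were.

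**Figure D3:**
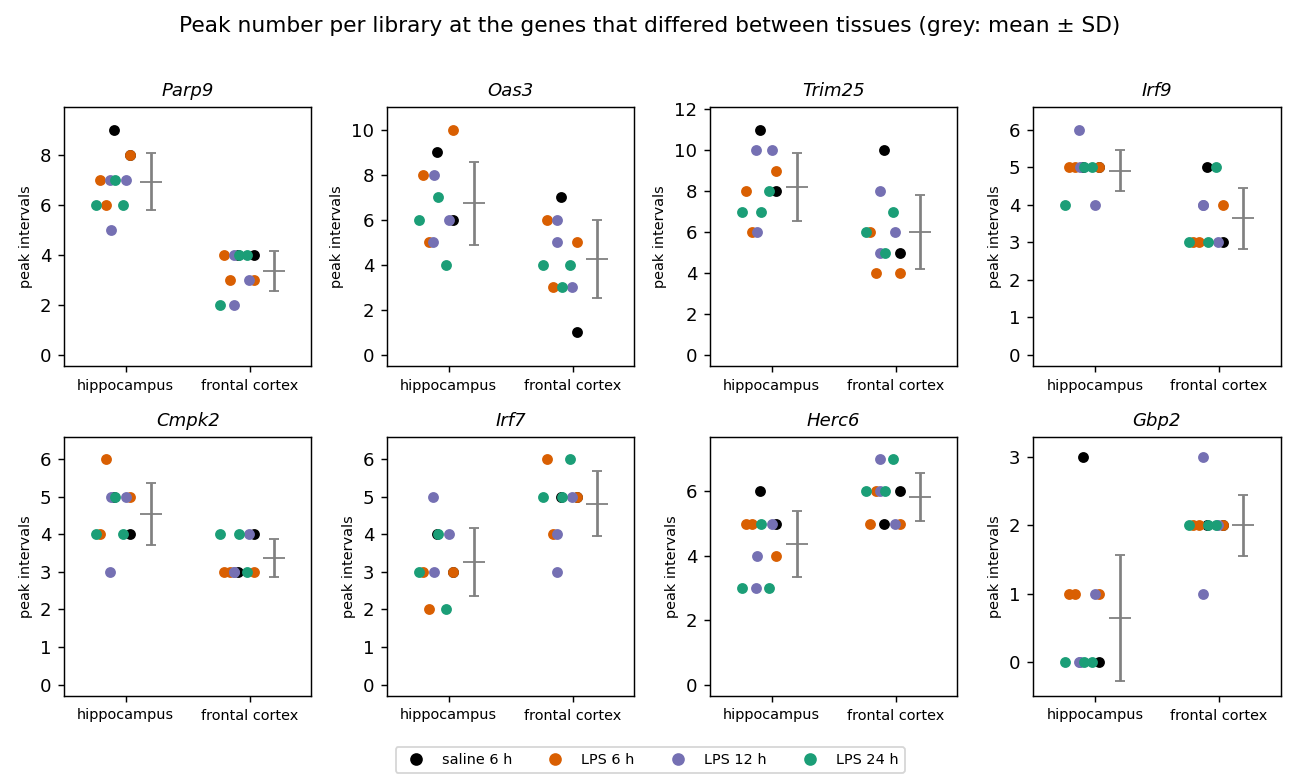
Peaks per library (y axis) in hippocampus and frontal cortex at the 8 genes called between tissues, with points coloured by challenge and time and grey marks for mean ± SD over 11 libraries. The Parp9 groups do not overlap (5 to 9 against 2 to 4), and the other 7 overlap.

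The remaining 26 genes tested were not called. Ifih1 had the most peaks of all, 9 to 15 in hippocampus and 9 to 16 in cortex, followed by Dhx58, which encodes the RNA sensor LGP2 (6 to 9 and 6 to 8), Ifit2 (5 to 8 and 4 to 8) and Oas2 (5 to 9 and 3 to 7). Over all 35 genes the fewest were at Oas1a, then Ifi44 (1 to 2 in both tissues), Gbp2, described above, Zbp1, a sensor of Z-form nucleic acid (0 to 2 and 0 to 4), and Trim30a (0 to 3 in both). The ranges of the genes not called overlapped between the tissues.

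Equal peak numbers in the 2 tissues could hide different positions, so windows reaching 250 bp to each side of shared summits were compared one by one. The 35 genes had 311 windows, of which 69 (22.2%, against 18.4% of all 563375 windows) held a peak in every library. Of 163 windows tested by Fisher's exact test, 39 (23.9%) differed between tissues after adjustment over 327334 windows, against 30.5% of all. Peaks were commoner in hippocampus at 26 of the 39 and in cortex at 13, where the shares over the genome were 18.3% and 12.2%. They lay at 21 of the 35 genes, and 5 of these, Ifih1, Isg15, Ifi27, Trim25 and Eif2ak2, had windows of both directions. The shares of all genes with a called window or with both directions were not counted, so these counts do not set the 35 apart. Only 2 of the 39 were counted within 1 kb of a gene start that had a start window, against 29 of the 69 windows present in all libraries. Starts of genes without a start window, some of the 35 among them, were left out, so both counts may be too low. Some lie in the bodies of neighbouring genes, among them those of Irf9 (in Rnf31), Irf7 (in Phrf1), Isg15 (both in Perm1), Gbp2 (in Gbp2b) and 1 of Parp9 (in Dtx3l). Intron and exon positions were not analysed here.

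Ifih1 carried the most, 3 windows of hippocampus and 5 of cortex, 7 of them in the gene body. The window at chr2:62603489-62603989 held a peak in 11 of 11 hippocampus and 2 of 11 cortex libraries (Fisher's exact test, adjusted p = 0.00145). There the peak was among the 50000 strongest in 10 hippocampus libraries and no cortex library. The window at chr2:62600080-62600580, also in the gene body, was the reverse, with 0 of 11 hippocampus and 11 of 11 cortex libraries (Fisher's exact test, adjusted p = 4.32e-05). A further cortex window at chr2:62590132-62590632 lies 5236 bp past the gene end and was also 0 of 11 against 11 of 11. Ifih1 as a whole gave nearly equal counts in the 2 tissues, partly from different positions. Of its 27 windows, 6 held a peak in all 22 libraries.

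Trim25, called higher in hippocampus, also had neighbouring windows of opposite direction. Downstream of the gene, chr11:89021653-89022153 held a peak in 11 hippocampus and 5 cortex libraries (Fisher's exact test, adjusted p = 0.0406), and chr11:89022341-89022841 in 1 and 11 (adjusted p = 0.000297). Upstream of its start, windows 1258 and 2743 bp away held peaks in 8 and 10 hippocampus libraries and in no cortex library. These peaks were weak, and at a −log10 q of 5 or more they remained in 2 and 0 hippocampus libraries. Parp14, which encodes a mono-ADP-ribosyltransferase that partners with PARP9, had its strongest difference in the gene body at chr16:35848218-35848718. That window held a peak in 11 hippocampus and 2 cortex libraries (Fisher's exact test, adjusted p = 0.00145), and among the 50000 strongest in 11 and 0. The neighbouring gene Parp9 had windows at 11 against 1 (in Dtx3l), 10 against 0 and 9 against 0, all higher in hippocampus. At a −log10 q of 5 or more these Parp9 windows held a peak in 10, 2 and 8 hippocampus libraries.

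Among the effectors, Herc6 had cortex windows 18836 and 27259 bp downstream of its start, each in 0 of 11 hippocampus and 11 of 11 cortex libraries. Ifi27, a small mitochondrial and nuclear membrane protein gene, had a cortex window of 0 against 11, 1162 bp outside the gene, and a hippocampus window of 10 against 0 on its other flank. Gbp5, a GTPase that aids inflammasome assembly, had a window 2183 bp into the gene in 11 hippocampus and 0 cortex libraries, and Oasl2 had one 9513 bp into the gene with the same counts (Fisher's exact test, adjusted p = 4.32e-05 for each). In the gene body of Rsad2, chr12:26452559-26453059 held a peak in 11 and 4 libraries, and among the 50000 strongest in 5 and 0. Bst2, with a window 388 bp past its end (11 against 2), Ifit2 (11 against 2), Oas2 and Oas3 (11 against 1, 11 against 4 and 9 against 0), Oasl1 (8 against 0), Xaf1 (9 against 0) and Cmpk2 (9 against 0) were each higher in hippocampus. At a −log10 q of 5 or more, few hippocampus libraries kept a peak at several of these windows. The numbers were 0 at Cmpk2, 1 at Ifi27, 2 at Xaf1, 3 at Oasl1, and 4 each at Gbp5, Oasl2 and Ifit2. At Oas2 and Oas3 they were 6, 10 and 2, and at Rsad2 and Bst2 11 each. With the animal as a block, an exact sign test over animals called 20 hippocampus and 11 cortex windows, where 12.8% and 8.14% of all windows were called. The 8 windows lost were 3 of Ifih1 (10 against 3, 7 against 0 and 0 against 7), both of Isg15, and those of 11 against 4 at Rsad2 and between Oas2 and Oas3 and of 11 against 5 at Trim25 (adjusted p of 0.0601 or 0.0989 in that sign test). Isg15 then had no called window, and Ifih1, Ifi27, Trim25 and Eif2ak2 had both directions.

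**Figure D4:**
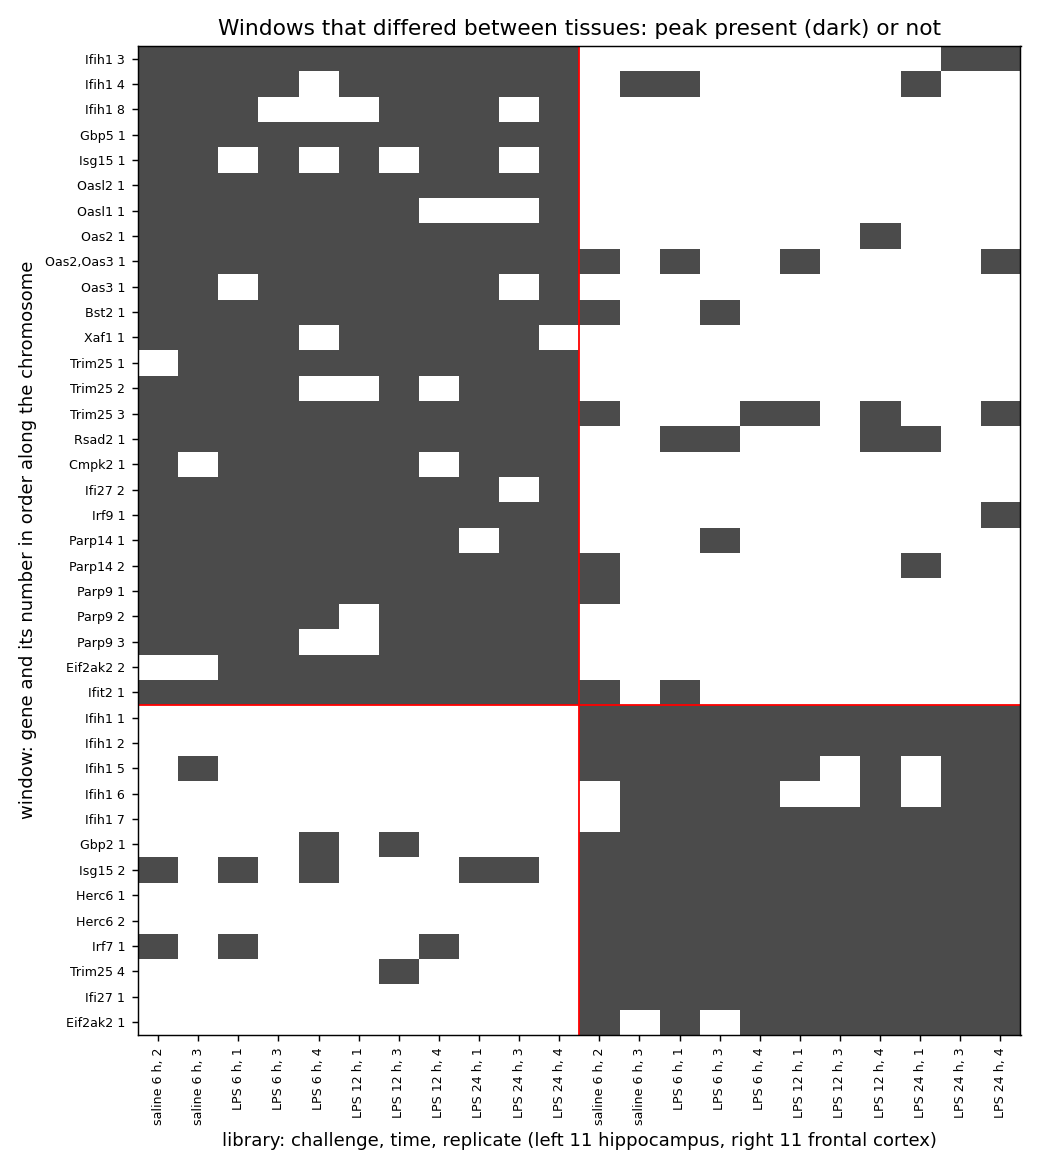
Presence (dark) or absence of a peak in each of 22 libraries (columns) at the 39 windows that differed between tissues (rows, named by gene and numbered along the chromosome). The 26 windows above the line are held mainly by the 11 hippocampus libraries and the 13 below mainly by the 11 cortex libraries; 7 windows separate the tissues completely.

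The strongest peaks were also counted by themselves. Among the 50000 strongest peaks of each library, Oas3, Irf9, Parp14 and Cmpk2 held more in hippocampus and Herc6, Oasl1, Oasl2, Usp18 and Xaf1 more in cortex (permutation test with the same adjustment). The calls of Oasl1 and Oasl2 are not separate. The window chr5:114914772-114915272, counted for both genes, held such a peak in 5 hippocampus and 11 cortex libraries. Of all 14060 genes tested on this scale, 15.5% were called in hippocampus and 18% in cortex. Parp14 held 1.18 ± 0.405 strong peaks in hippocampus and 0 in every cortex library (SD, n = 11, permutation test, adjusted p = 0.000163). Usp18, the protease that removes ISG15, held 0.909 ± 0.831 and 1.82 ± 0.405 (SD, n = 11 each, permutation test, adjusted p = 0.0379). Oas3, Irf9, Cmpk2 and Herc6 were called with all peaks as well. At Parp9 the strong peaks did not pass the test (0.364 ± 0.924 and 0.182 ± 0.405, SD, n = 11 each).

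Peak number was compared between LPS and saline in a design that could not call a single gene by itself. Across the 35 genes, 0 were called for LPS against saline in hippocampus, in cortex, between the LPS times in either tissue, or for a difference of the LPS effect between tissues, by exact permutation tests with adjustment over all genes, and the same held for every gene of the genome (0%). Two-sided p-values for LPS and for the difference between tissues were doubled one-sided ones, whose smallest value with 9 LPS and 2 saline libraries is 0.0364, and with 3 libraries at each of the 3 times the smallest p is 0.00357. A gene could therefore pass the adjusted threshold only if at least 72.7% of all genes sat at the smallest p for LPS and for the difference between tissues, and only together with at least 7.14% of all genes for time, so these counts of 0 say nothing of whether a single gene changed. At an unadjusted p under 0.05 there were 0 of 34 genes in hippocampus (2.77% of all genes) and 1 of 34 in cortex (1.17%) for LPS, 1 of 33 and 0 of 34 for time (2.49% and 4.06%), and 1 of 34 for the difference between tissues (2.1%). The cortex gene was Xaf1, a pro-apoptotic factor, with 6 and 6 peaks in saline and 4 or 5 in all 9 LPS libraries (exact permutation p = 0.0364, adjusted p = 1). The hippocampus gene for time was Mx2, which the annotation gives as a transcribed pseudogene. It held 4, 4 and 4 peaks at 6 h, 6, 6 and 5 at 12 h and 4, 4 and 4 at 24 h (exact permutation p = 0.0357, adjusted p = 1). The LPS effect at Ifi27 differed between the tissues before adjustment only (exact permutation p = 0.0364, adjusted p = 1).

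Summed over the 35 genes, hippocampus libraries held 59.0 and 62.8 peaks per 100000 library peaks in saline. They held 56.5, 57.6 and 57.7 at 6 h of LPS, 51.6, 52.8 and 60.3 at 12 h, and 51.7, 53.6 and 54.2 at 24 h. The 6 h and 24 h values lay below both saline values, and the 12 h values did not separate from them. In cortex the saline libraries held 54.26 and 59.96, and the LPS libraries ran from 53.0 to 62.2, across the saline range. No test was made of these sums. The hippocampus saline pair includes the library with the most peaks, and its part in the difference was not tested.

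**Figure D5:**
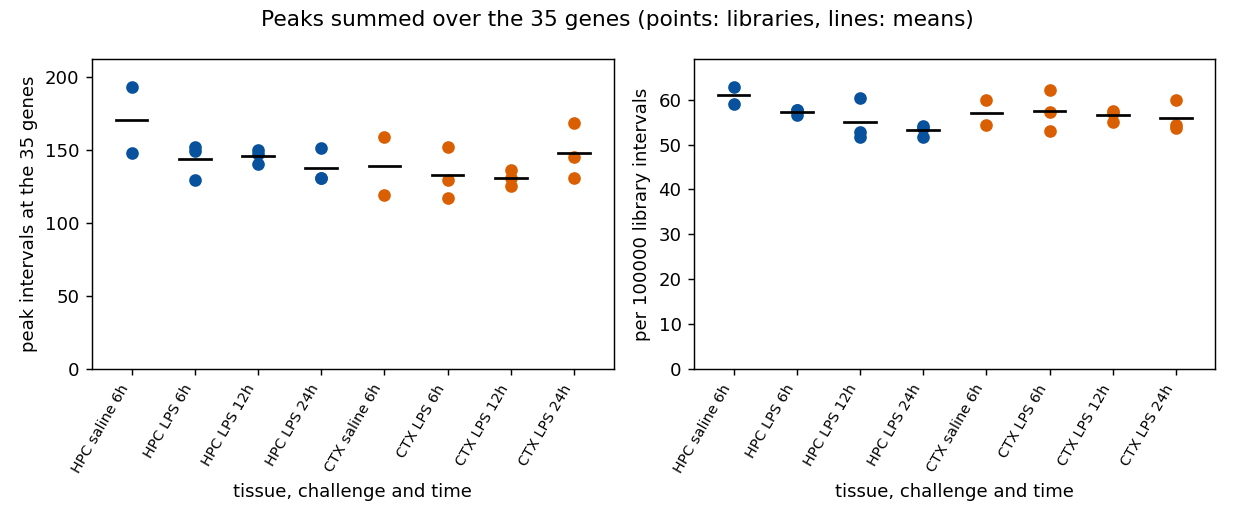
Peaks summed over the 35 genes per library (left) and the same per 100000 peaks of the library (right), by tissue (HPC hippocampus, CTX frontal cortex), challenge and time; points are libraries and lines are means. In the right panel the hippocampus libraries at 6 h and 24 h of LPS (51.7 to 57.7) lie below the saline ones (59.0 and 62.8), and in cortex the groups overlap.

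Single windows that switched with LPS were few. A window 2462 bp upstream of the Eif2ak2 start, chr17:78884784-78885284, held a peak in all 9 LPS libraries of hippocampus, in neither saline library and in none of the 11 cortex libraries. Eif2ak2 encodes PKR, the kinase that halts translation on sensing double-stranded RNA, and the window lies in the bodies of its neighbours Sult6b1 and Gm26637. The peaks were weak, with 1 of the 9 at a −log10 q of 5 or more, and none among the 50000 strongest. It was 1 of 159 windows tested at these genes (0.629%), where 0.166% of 297677 windows behaved so. The reverse, a peak in both saline and no LPS library, was found in hippocampus at 1 window downstream of Trim25 (chr11:89026076-89026576, 0.448% of all windows) and in cortex at 1 window in the Ifih1 body (chr2:62626295-62626795, 0.302% of all windows). No window at these genes gained a peak in all 9 LPS libraries of cortex and neither saline library (0 of 152, against 0.252% of all). With 3 libraries against 2, the single times are given as counts with no test.

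At single times the hippocampus gained 1 of 119 windows at 6 h, 1 of 120 at 12 h and 1 of 117 at 24 h, each time that of Eif2ak2 (0.913%, 2.33% and 2.05% of all windows). It lost 3, 6 and 5 (2.67%, 2.5% and 2.95% of all). In cortex the genes gained 0 of 111 windows at 6 h, 1 of 101 at 12 h and 4 of 115 at 24 h (1.19%, 1.75% and 5.45% of all) and lost 4, 2 and 1 (2.11%, 2.29% and 1.49%). The 4 gained at 24 h lay at the Ifit3 start, at the Gbp3 start, 5059 bp upstream of Herc6 and 39 bp outside Zbp1. Beside the window at the Gbp3 start, another held a peak in all 22 libraries. The Zbp1 window held a peak in 0 of 2 saline libraries and in 1, 3 and 3 of 3 libraries at 6, 12 and 24 h in cortex, and in 0, 0, 0 and 2 in hippocampus. The share of windows gained at 24 h in cortex was below that over the genome.

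The authors' deposited tables of differential regions, the only comparison made on reads, listed 2 regions at 1 of the 35 genes, Parp9. In the authors' deposited table for hippocampus at 12 h, chr16:35954701-35954810, labelled as a Parp9 intron, was lower with LPS (FDR 0.0483). It overlaps the Parp9 window that held a peak in 9 hippocampus and 0 cortex libraries, with peaks in 2 of 2 saline libraries and 2, 2 and 3 of 3 at 6, 12 and 24 h. In the authors' deposited table for cortex at 6 h, chr16:35981401-35981810, 8780 bp outside Parp9 and labelled as the promoter and intron of Kpna1, was higher with LPS (FDR 0.00189). Peaks stood there in 2 of 2 saline cortex libraries and in 2, 1 and 2 of 3 at 6, 12 and 24 h. A region was listed in the authors' deposited tables for 6.94% of all genes in hippocampus at 12 h and 1.13% in cortex at 6 h. The authors' deposited tables named none of the 35 in hippocampus at 6 h (0.064% of all genes) or 24 h (0.443%), or in cortex at 12 h (0.128%) or 24 h (10.4%). These comparisons share their saline libraries within a tissue.

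The other genes of the pathway were taken from a list of 78 symbols, of which 72 matched and were tested. Of these, 8 (11.1%) were higher in hippocampus and 8 (11.1%) in cortex, against 18.6% and 9.56% of all genes tested. Among the ligands and receptors, Ifnb1, which encodes interferon beta, held 3.09 ± 0.831 peaks in hippocampus and 1.82 ± 0.751 in cortex (SD, n = 11 each, permutation test, adjusted p = 0.0181). Ifngr1, a chain of the interferon gamma receptor, held 4.91 ± 1.22 and 3 ± 1 (SD, n = 11 each, permutation test, adjusted p = 0.00972), a call lost with the animal as a block (adjusted p = 0.0582). None of the 5 kinases or 8 transcription factors was called in peak number. Of the other targets, Dtx3l, the partner and neighbour of Parp9 whose region overlaps its own, held 4.27 ± 0.647 and 2.09 ± 0.302, and the chemokine gene Ccl5 held 5.73 ± 0.647 and 3.55 ± 0.522 (SD, n = 11 each, permutation test, adjusted p = 0.000270 for each). Cd274, which encodes PD-L1, was higher in cortex, with 7 ± 0.632 and 8.45 ± 0.688 (SD, n = 11 each, permutation test, adjusted p = 0.00133).

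The tissue labels were checked against markers. Of 6 hippocampus markers 5 held more peaks in hippocampus, and of 6 frontal cortex markers 3 held more in cortex and none fewer. Prox1, the dentate granule cell factor, held 19.9 ± 3.65 and 10.1 ± 2.17, and Rorb, a factor of cortical layer neurons, 12.1 ± 1.87 and 27.5 ± 3.72 (SD, n = 11 each). Against those same shares of all genes, 18.6% in hippocampus and 9.56% in cortex, astrocyte markers were called higher in hippocampus at 3 of 5 genes, with summed counts of 49 to 64 in hippocampus and 35 to 58 in cortex. Microglia markers were called at 1 of 8 (P2ry12, higher in hippocampus; sums of 56 to 78 and 59 to 79), endothelial markers at 1 of 5 (Tek, higher in hippocampus; 37 to 66 and 33 to 54) and oligodendrocyte markers at 0 of 5 (63 to 75 and 55 to 82). Of the neuron markers Gad1 was higher in hippocampus and Slc17a7 in cortex. Blood leukocyte markers summed to 21 to 33 and 18 to 31, with Ly6g and S100a9 at 0 in every cortex library. The part of these cell types in the tissue differences at the 35 genes was not tested.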

How the data were processed

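Peaks of 22 OMNI-ATAC-seq libraries were analysed as deposited, 1 list per library. The submitters' processing notes list MACS2 2.2.7.1, Bowtie2 2.4.4, Trim Galore 0.6.7 and FastQC 0.11.9, with the build GRCm38. The sources used here do not say whether read ends were offset for transposase cutting. Low read depth led to the exclusion of 1 baseline animal, per the labels. For each peak the deposited lists hold a score, a ratio (fold enrichment) and −log10 values of p and q, used here only to rank or filter within a library. Of the authors' deposited differential tables the region, the direction and a number taken as log10 of the FDR times -10 were used.

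Distinct peak intervals were counted per gene, and windows of 250 bp to each side of a summit were called present where a peak overlapped by 50% or more of the shorter. A start window counted as having a peak with any overlap. Peak numbers were compared by 100000 resamples between tissues and by exact permutation otherwise, windows in 2 to 20 libraries by Fisher's exact test, and all p-values were adjusted by Benjamini-Hochberg at 0.05 over the whole table. The tests were two-sided and were tested on simulated data. The animal pairs the tissues, per the labels; same-animal deviations correlated between −0.455 and 0.548, above 0.1 in 7 of 11 pairs. The 35 genes, the pathway list and the markers were chosen with earlier results of these data known. Genes are described in full where a region, window, peak number or start peak singled them out, or where they had the 5 most or 5 fewest peaks. Alternatives were stricter peaks, the 50000 strongest, gene bodies only, a 50 kb flank, other overlaps, summit counts, scaling by library, an FDR of 0.01, the block and leaving out each animal. The software was matplotlib 3.10.9, numba 0.67.0, pandas 2.3.3, scipy 1.17.1 and numpy 2.4.6 under Python 3.11.15. Some listed genes are not reported here.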

Additional observations from a re-analysis of the deposited data

How the results depend on the processing

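The number of genes called between tissues depended on how peaks were counted. The main count was 5 genes in hippocampus and 3 in cortex. Counting each summit gave 3 in hippocampus. The 50000 strongest peaks gave 5 in cortex, of which only Herc6 was among the 3. Among those 5, Oasl1 and Oasl2 share a strong peak. Gene bodies only gave 7 in hippocampus and 0 in cortex, and the replicate block 1 in cortex. Over all genes, hippocampus and cortex calls were 3436 and 1802 of 19250 by summit and 2660 and 1357 of 16821 in gene bodies only. At −log10 q of at least 5 they were 2973 and 2130 of 18411. With only peaks at −log10 q of at least 5 the count in hippocampus was again 5, but Oas3, Trim25 and Cmpk2 were replaced by Rsad2, Irf1 and Parp14, and in cortex Irf7 was lost while Ifi27 and Eif2ak2 were gained. Leaving out each animal in turn gave 3 to 5 in hippocampus and 3 in cortex. Irf9 was called in hippocampus in every setting run except gene bodies only and summit counts, and Parp9 in every one except the 50000 strongest. The difference at Trim25 turned to -0.364 among the 50000 strongest, and that at Gbp2 to 0.0909 in gene bodies only; the cause was not tested.

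The 26 hippocampus windows became 13 with only peaks at −log10 q of at least 5, 7 among the 50000 strongest, 16 in gene bodies only and 52 with a flank of 50 kb. The 13 cortex windows became 5 among the 50000 strongest, 7 in gene bodies only and 48 with a flank of 50 kb. Leaving out 1 animal gave 24 to 26 and 12 to 14. With the replicate block the windows were 20 and 11. Apart from the replicate block, the shares of all windows called under these settings are not given here. Each setting can also change which windows are tested, so these counts do not set the genes apart. The 2 differential regions became 1 in gene bodies only, 7 with a flank of 50 kb and 1 at an FDR of 0.01. The shares of all genes with a region under those 3 settings are not given here either. The 5 start peaks among the strongest in all libraries became 3 with 25000 peaks. No gene was called for LPS or time in any setting run, which the smallest p of those tests left little room for. Peak lists carry no depth, so no detection limit can be given for a missing peak.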

Other observations

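Farther from the 35 genes, between 10 and 50 kb, the authors' deposited tables hold 5 more regions, named here after their values were seen. The share of all genes with a region at that distance is not given here, so these 5 do not set the genes apart. In the authors' deposited table for hippocampus at 12 h, 2 lie beside Parp14 and were lower with LPS (FDR 0.0190 and 0.0258), both labelled Hspbap1. In the same authors' deposited table a region beside Trim25, labelled as the Dgke promoter, was lower (FDR 0.0249), and another that is 17684 bp from Usp18 was higher (FDR 0.0216). The Usp18 region held a peak in 0 of 2 saline libraries and in 2, 3 and 3 of 3 hippocampus libraries at 6, 12 and 24 h. In the authors' deposited table for cortex at 24 h, 1 region 32983 bp from Rsad2, labelled as a Rnf144a intron, was lower (FDR 0.0440).

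Other genes of the interferon pathway had 14 distinct regions within 10 kb in the authors' deposited tables. In the authors' deposited table for hippocampus at 12 h, 7 of 72 pathway genes (9.72%) had a region, against 6.94% of all genes, and in that for cortex at 24 h 6 of 72 (8.33%), against 10.4%. In the authors' deposited table for hippocampus at 12 h, Stat3 had 2 regions, both lower with LPS (FDR 0.0181 and 0.0389). Regions at Ifnar2 (FDR 0.0348) and Irf8 (FDR 0.00640) in that authors' deposited table were also lower. Higher there were 1 region at Nlrc5 (FDR 0.0160) and 1 that counts for both Gbp4 and Gbp9 (FDR 0.0325). Jak1, the kinase of the interferon receptors, had 1 higher in cortex at 24 h (FDR 0.00695) and 1 lower in hippocampus at 12 h (FDR 0.0274) in the authors' deposited tables. Tlr3, the endosomal sensor of double-stranded RNA, had 1 higher in cortex at 24 h (FDR 0.00189), by the authors' deposited table.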
